A study of Homo sapiens with 6 samples.

Results

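The unfolded protein and ATF4 response was followed as 37 genes, of which 21 formed an ATF4 arm (ATF4, the factors and feedback genes around it, and the amino acid supply genes that it controls) and 16 an endoplasmic reticulum (ER) arm (XBP1 and the chaperones, folding enzymes and degradation factors of the ER). The genes were chosen for their known functions, but not blind to these arrays. Of the 37 genes 36 were detected on at least 1 array, among 12187 genes measured in all, and 31 were detected on all 6 arrays. HERPUD1, a membrane protein of ER-associated degradation, was not analysed here because no probe carried its name.

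Total RNA of the colon cancer lines HCT116 and COLO205 and of the ovarian cancer line OVCAR5 was measured on Illumina bead arrays, to look for genes that follow telomerase inhibition. Each line had 1 array of cells given imetelstat, a lipid-linked oligonucleotide that blocks the template of telomerase RNA, for 2 weeks and 1 array of control cells. The labels call the control vehicle, whereas the methods of the study name a mismatch oligonucleotide and a figure legend calls the control cells untreated, so the control agent is not settled, and no genotype beyond the line and no transgene is given. The study mentions replicates, but the labels hold 1 array per line and treatment. A difference is given below as the log2 signal with imetelstat minus the log2 signal with vehicle after quantile normalization, without background subtraction, which makes the differences of dim genes smaller than they were. With 1 array against 1 array a difference has no replicate check, and precision is limited by how many arrays there are. In bulk RNA, fewer cells that express a gene and less RNA per cell cannot be told apart.

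When unfolded proteins build up in the ER, the membrane sensors PERK, IRE1 and ATF6 are switched on. PERK phosphorylates the translation factor eIF2alpha, as do GCN2 in amino acid shortage, PKR on double-stranded RNA and HRI in haem shortage, and this slows general translation while more ATF4 protein is made. ATF4 turns on genes for amino acid uptake and synthesis and, under lasting stress, the factor CHOP, whereas IRE1 splices the XBP1 mRNA and spliced XBP1 and cleaved ATF6 turn on the ER chaperones. Secretory epithelia and the carcinomas that arise from them depend on this response to fold their secreted and surface proteins. ATF4 is controlled largely in translation and XBP1 in splicing, and total mRNA signal measures neither step.

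The labels were checked before the members were compared. Of 12 measured markers of colon epithelium, 5 (CDX2, EPCAM, KRT8, KRT18 and KRT19) were detected on each HCT116 array and on each array labelled COLO205, whereas 11 were detected on the OVCAR5 vehicle array and 10 on the OVCAR5 imetelstat array. CEACAM5, CEACAM6, KRT20 and CDH17, surface proteins and a keratin of differentiated colon cells, were detected on both OVCAR5 arrays and on neither array labelled COLO205. Of 4 measured Muellerian and ovarian carcinoma markers 2 or 3 were detected per array, and of 3 measured markers of stroma, blood and endothelium 1 to 3. Over the 31 members detected on every array, the median absolute log2 difference was 0.19 between HCT116 with imetelstat and COLO205 with vehicle, smaller than the 0.41 between the treated and control arrays of HCT116 themselves. Over all genes the same pairs of arrays differed by 0.15 and 0.15. The other pairs of an HCT116 array and a COLO205 array differed by 0.215, 0.252 and 0.316 over the members. Over all genes these pairs differed by 0.16, 0.206 and 0.223. An OVCAR5 array and an array of another line differed by 0.551 to 0.73 over the members and by 0.391 to 0.432 over all genes. Values for COLO205 below are those of the arrays with that label, which stood close to HCT116, and each line is reported by itself.

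The arms parted in HCT116, were mixed in COLO205 and were both mostly higher in OVCAR5. In HCT116, 15 of 18 measured members of the ATF4 arm were lower with imetelstat, with a median difference of -0.34, and 12 of 14 members of the ER arm were higher, with a median of 0.43 (11 of 14 with the mean of the detected probes of each gene). In OVCAR5, 19 of 21 members of the ATF4 arm were higher, with a median of 0.28, and 11 of 15 members of the ER arm were higher, with a median of 0.11. In COLO205 the ATF4 arm held 9 higher and 9 lower members with a median of -0.01, and the ER arm held 6 higher and 8 lower with a median of -0.16. The median over all genes detected in a line was 0.01 in HCT116, -0.01 in COLO205 and -0.01 in OVCAR5, and 50.8%, 48.9% and 49.1% of those genes were higher with imetelstat. The ATF4 arm median minus the ER arm median was -0.77 in HCT116, 0.16 in COLO205 and 0.18 in OVCAR5. Of the 18 members of the ATF4 arm in HCT116, 17 lay below the median of the ER arm, against 6 of 18 in COLO205 and 3 of 21 in OVCAR5. No test of these medians is given, because 1 array stood on each side.

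**Figure D1:**
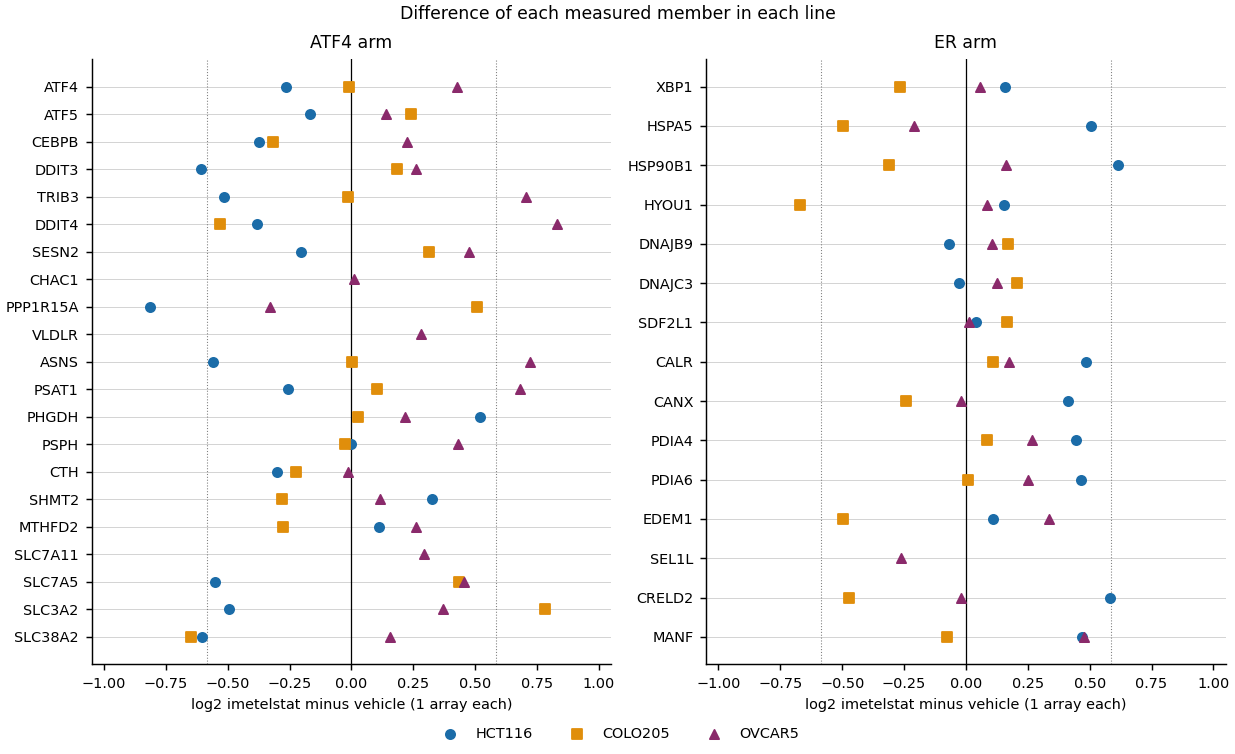
Log2 signal with imetelstat minus vehicle (x axis) for the measured members of the ATF4 arm (left) and the ER arm (right), 1 point per line in which the gene was detected; dotted lines mark 1.5-fold. In HCT116 (circles) 15 of 18 ATF4 arm members lie left of 0 and 12 of 14 ER arm members right of it, and in OVCAR5 (triangles) 19 of 21 ATF4 arm members lie right of 0.

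Single differences were small. At 1.5-fold or more, 3 members of the ATF4 arm were lower in HCT116 (PPP1R15A, DDIT3 and SLC38A2), where 2.11% of all genes were lower by that much, and 1 member of the ER arm was higher (HSP90B1), where 1.3% of all genes were. In COLO205 1 member was higher (SLC3A2; all genes, 1.87%) and 2 were lower (SLC38A2 and HYOU1; all genes, 2.02%). In OVCAR5 4 members were higher (DDIT4, ASNS, TRIB3 and PSAT1; all genes, 1.48%) and 0 lower (all genes, 1.36%). HYOU1 in COLO205 and ASNS in OVCAR5 passed the limit on only 1 of their 2 detected probes. CRELD2 in HCT116 lay just short of the limit at a log2 difference of 0.58. At 2-fold, 0 members were called in any line with this processing, beside 0.736% of genes lower and 0.0908% higher in HCT116, 0.163% and 0.134% in COLO205, and in OVCAR5 0.342% and 0.256%.

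Across the 3 lines, limma's moderated test with the line as a block called 0.0% of 12187 genes at an adjusted p below 0.05, and 329 genes (2.7%) had an unadjusted p below 0.05. Of the 36 members 0 passed either limit. The lowest unadjusted p among them in limma's test was 0.0511, for SLC38A2, with a mean difference of -0.36 and a standard error of 0.16 (lower in 2 of 3 lines, adjusted p = 1.0). The members of the ER arm with the largest mean difference in this fit were MANF (0.29 with a standard error of 0.14, higher in 2 of 3 lines), PDIA4 (0.27 with 0.13) and CALR (0.26 with 0.13, both higher in 3 of 3 lines). A p above the limit does not show that the levels were equal, and effects that point opposite ways in different lines cancel in this fit. The fit and all counts over 3 lines take the arrays labelled COLO205 as a line of their own, although these stood close to HCT116.

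**Figure D2:**
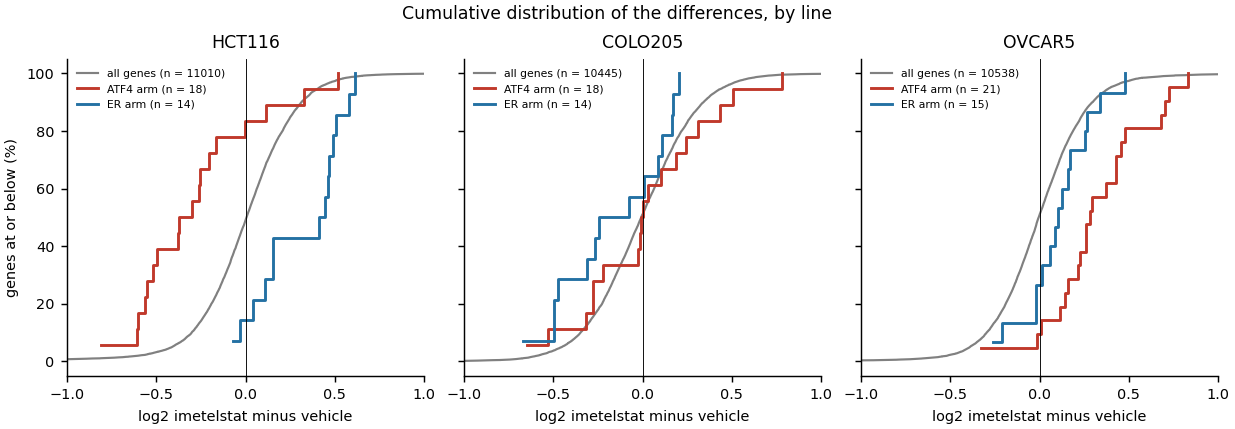
Cumulative share of genes (y axis, %) at or below each log2 difference (x axis) for all detected genes (grey), the ATF4 arm (red) and the ER arm (blue) in each line. In HCT116 the ATF4 arm (median -0.34) lies left of all genes and the ER arm (0.43) right of them, and in OVCAR5 the ATF4 arm (0.28) lies furthest right.

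The transcription factors of the ATF4 arm were lower in HCT116 in 4 of 4 cases and higher in OVCAR5 in 4 of 4. ATF4, the factor at the head of the arm, had a log2 signal of 12.41 with vehicle and 12.14 with imetelstat in HCT116, 11.98 and 11.96 in COLO205, and in OVCAR5 12.69 and 13.12. Its differences were -0.26, -0.01 and 0.43, and both OVCAR5 arrays lay above the other 4. Another 2 detected ATF4 probes, both dimmer, differed by 0.01 and -0.35 in HCT116, 0.29 and 0.17 in COLO205, and in OVCAR5 by -0.09 and 0.08, so that the higher value with imetelstat in OVCAR5 rests mainly on the brightest probe, whereas all 3 probes were higher on both OVCAR5 arrays than on the other 4. DDIT3 encodes CHOP, the factor linked to cell death under lasting ER stress. Its signal was 9.24 with vehicle and 8.63 with imetelstat in HCT116 (1.52-fold lower), 8.87 and 9.06 in COLO205, and in OVCAR5 8.02 and 8.28. The HCT116 vehicle array was the highest of the 6 for DDIT3 and both OVCAR5 arrays were the lowest. ATF5, a relative of ATF4 that is also controlled in translation, differed by -0.17, 0.24 and 0.14 in HCT116, COLO205 and OVCAR5, and CEBPB, a partner that binds DNA with ATF4, by -0.37, -0.32 and 0.23.

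The stress effectors and feedback genes of ATF4 ranged from -0.81 in HCT116 to 0.83 in OVCAR5. TRIB3, a pseudokinase that restrains ATF4 and CHOP, had signals of 9.59 with vehicle and 9.07 with imetelstat in HCT116, 9.16 and 9.15 in COLO205, and in OVCAR5 9.39 and 10.10. It was 1.63-fold higher with imetelstat in OVCAR5, the 93rd highest difference of 10538 genes there, and 1.43-fold lower in HCT116, the 325th lowest of 11010. DDIT4 (REDD1), an inhibitor of the growth kinase complex mTORC1, had signals of 13.86 and 13.48 in HCT116, 13.49 and 12.96 in COLO205, and in OVCAR5 11.58 and 12.41. It was lower with imetelstat in both lines labelled colon, where its level was high, and 1.78-fold higher in OVCAR5, where it was low, and the 2 OVCAR5 arrays stayed below the other 4. PPP1R15A (GADD34) directs the phosphatase that takes the phosphate off eIF2alpha and so ends the block in translation. Its signals were 10.21 and 9.39 in HCT116, 9.67 and 10.18 in COLO205, and in OVCAR5 11.26 and 10.93, and its difference of -0.81 in HCT116 was the most negative of any member. It was 1.42-fold higher in COLO205 and 1.25-fold lower in OVCAR5, opposite in OVCAR5 to 19 of the other members of its arm.

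The other 3 effectors were dim. SESN2, a leucine-sensing inhibitor of mTORC1, was detected on the HCT116 vehicle array (7.17), the COLO205 imetelstat array (7.24) and the OVCAR5 imetelstat array (7.18), and not on the partners of these arrays (6.96, 6.93 and 6.70). Against the lowest detected signal of the array that missed it, SESN2 in HCT116 was lower with imetelstat by at least 1.13-fold, at least 1.16-fold higher in COLO205 and at least 1.12-fold higher in OVCAR5. CHAC1, an enzyme that breaks down glutathione, was detected on the OVCAR5 vehicle array alone, at 7.04, and its signal with imetelstat there was 7.05, so no fold is given. VLDLR, a lipoprotein receptor induced by ATF4, was detected only in OVCAR5, at 7.39 with vehicle and 7.67 with imetelstat.

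The amino acid synthesis genes were led by ASNS, the enzyme that makes asparagine. Its promoter holds the classical amino acid response element that ATF4 binds with a CEBP partner, and it was searched here as TGATGNAA on both strands. Sequences came from RefSeq on the build GRCh38.p14, from 250 bases before to 50 after the start site, and 34 of the 37 members had an entry, 11 of them with more than 1 start site. PSPH, SHMT2 and SLC7A11 had none. The element was found in 3 of 18 promoters of the ATF4 arm (16.7%; ASNS, CHAC1 and, past the start site, SLC3A2), in 1 of 16 of the ER arm (HERPUD1), and in 1217 of 27305 genes (4.46%). Its core TGATG was found in 4 of 18 members of the ATF4 arm and in 37.7% of all genes. The ATF4 arm matches upstream of the start site are shown 5′ to 3′ along the gene with 20 bases on each side, capitals marking the element, at chr7:97872449-97872496 on the minus strand for ASNS and at chr15:40953242-40953289 on the plus strand for CHAC1, where it reads on the opposite strand.
ASNS: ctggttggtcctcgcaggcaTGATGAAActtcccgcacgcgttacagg
CHAC1: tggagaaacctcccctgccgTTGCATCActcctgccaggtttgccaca
These matches describe the sequence and are not evidence of binding on these arrays.

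ASNS signals were 10.96 with vehicle and 10.40 with imetelstat in HCT116, 10.76 and 10.76 in COLO205, and in OVCAR5 9.97 and 10.70. The level was 1.48-fold lower in HCT116, the same to within 0.01 in COLO205 and 1.65-fold higher in OVCAR5. On this probe OVCAR5 thus reached the range of the other lines with imetelstat. A dimmer ASNS probe differed by -0.10, -0.84 and 0.39, with the same signs in HCT116 and OVCAR5 and a lower value in COLO205. On that dimmer probe OVCAR5 with vehicle (8.19) already lay between the COLO205 arrays (8.67 with vehicle and 7.83 with imetelstat). PSAT1, the transaminase of serine synthesis, had signals of 10.36 and 10.11 in HCT116, 10.32 and 10.42 in COLO205, and in OVCAR5 9.15 and 9.83. It was higher in OVCAR5 by 0.68 on the log2 scale, yet both OVCAR5 arrays stayed below the other 4. PHGDH, which opens the serine pathway, went another way in HCT116, where most of the arm was lower. Its signals were 11.18 and 11.70 in HCT116 (1.43-fold higher), 11.39 and 11.42 in COLO205, and in OVCAR5 10.79 and 11.01, higher with imetelstat in 3 of 3 lines. PSPH, the last enzyme of that pathway, differed by -0.00, -0.02 and 0.43. CTH, which makes cysteine from cystathionine, was lower in 3 of 3 lines on its brightest probe, with signals of 7.84 and 7.54 in HCT116, 7.88 and 7.66 in COLO205, and in OVCAR5 7.57 and 7.56. A dimmer CTH probe differed by -0.11, 0.39 and 0.25, and another by 0.06, -0.46 and 0.08, so that its direction depends on the probe in each line.

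The mitochondrial folate enzymes differed from the rest of the ATF4 arm in HCT116. SHMT2, which moves a carbon unit from serine to folate, had signals of 11.21 and 11.53 in HCT116, 11.34 and 11.06 in COLO205, and in OVCAR5 10.91 and 11.03. MTHFD2, the next enzyme, differed by 0.11, -0.28 and 0.26. Both were higher in HCT116 and OVCAR5 and lower in COLO205, and with PHGDH they were the 3 members of the arm above 0 in HCT116.

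The amino acid transporters were lower in HCT116 in 3 of 3 measured cases and higher in OVCAR5 in 4 of 4. SLC3A2 encodes the CD98 heavy chain, which carries SLC7A5 and SLC7A11 to the cell surface. Its signals were 9.78 and 9.28 in HCT116, 9.80 and 10.58 in COLO205, and in OVCAR5 10.48 and 10.85. It was 1.72-fold higher in COLO205, the 45th highest difference of 10445 genes, and 1.41-fold lower in HCT116, and a further probe gave -0.61, 0.90 and 0.21 in the same directions. SLC7A5, the leucine carrier LAT1, differed by -0.55, 0.43 and 0.45, the same signs as its heavy chain. SLC38A2, the glutamine and alanine carrier SNAT2, had signals of 11.08 and 10.48 in HCT116, 10.90 and 10.26 in COLO205, and in OVCAR5 10.13 and 10.29. It was 1.52-fold lower in HCT116 and 1.57-fold lower in COLO205, and unlike SLC7A5 and SLC3A2 it did not differ in sign between those lines. SLC7A11, the cystine carrier, was detected only in OVCAR5, at 7.47 with vehicle and 7.76 with imetelstat.

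**Figure D3:**
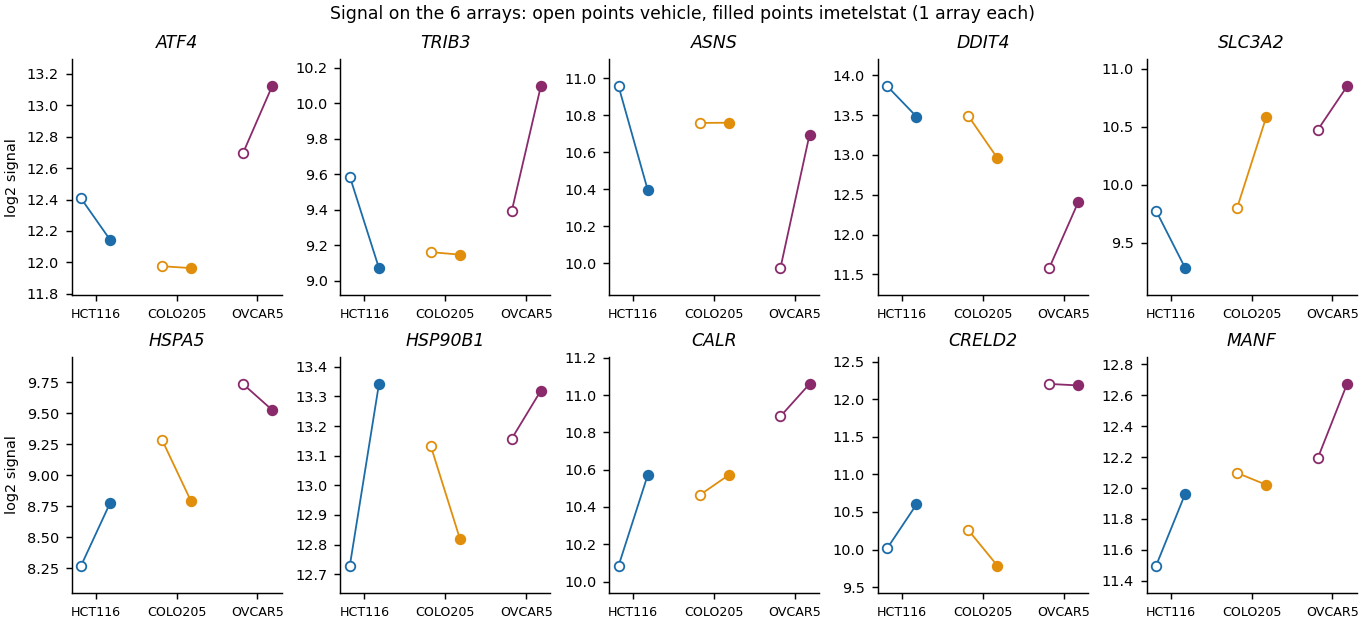
Log2 signal (y axis, a range of its own per gene, not starting at 0) of 5 ATF4 arm members (top) and 5 ER arm members (bottom) on the 6 arrays, open points for vehicle and filled points for imetelstat, 1 array each and joined within a line. ASNS was 10.96 and 10.40 in HCT116 against 9.97 and 10.70 in OVCAR5, and HSP90B1 was 12.73 and 13.34 in HCT116 against 13.13 and 12.82 in COLO205.

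The promoters of the ER arm were searched for the ER stress element, which ATF6 and XBP1 bind together with NF-Y. It was read as CCAAT, 9 bases of any kind and CCACG, on both strands. It was found in 7 of 16 members of the ER arm (43.8%), in 0 of 18 of the ATF4 arm and in 25 of 27305 genes (0.0916%). The 7 were XBP1, HSPA5, HSP90B1, CALR, CANX, PDIA6 and CRELD2, several of them genes on which the element was first described. The element TGACGTGG, named for XBP1, was found in HYOU1 and in 0.927% of all genes. The core CCACG alone was in 16 of 16 members of the ER arm, 10 of 18 of the ATF4 arm and 42.1% of all genes, and the core ACGTGG in 6, in 1 and in 11.6%. No 2 matches to the full elements overlapped, whereas cores can lie inside a full element or across each other, as they do in HYOU1 and ATF4. Members with several start sites had more windows in which a match could fall. As examples of the element, the windows of 3 chaperone genes, of CRELD2 and of XBP1 are shown along the gene, with 20 bases on each side and capitals marking both outer parts of the element: HSPA5 at chr9:125241371-125241429 (minus strand), HSP90B1 at chr12:103930196-103930254 and chr12:103930301-103930359 (plus), CALR at chr19:12938364-12938422 (plus), CRELD2 at chr22:49918534-49918592 (plus) and XBP1 at chr22:28800583-28800641 (minus).
HSPA5: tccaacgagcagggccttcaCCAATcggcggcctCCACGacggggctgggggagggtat
HSP90B1, upstream copy: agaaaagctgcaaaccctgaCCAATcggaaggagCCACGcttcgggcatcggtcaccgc
HSP90B1, downstream copy: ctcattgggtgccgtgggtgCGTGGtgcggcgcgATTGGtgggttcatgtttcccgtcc
CALR: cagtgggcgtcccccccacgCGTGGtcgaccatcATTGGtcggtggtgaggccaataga
CRELD2: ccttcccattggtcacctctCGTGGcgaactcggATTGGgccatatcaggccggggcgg
XBP1: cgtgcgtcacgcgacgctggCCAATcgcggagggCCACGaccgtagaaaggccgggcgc
The downstream copy of HSP90B1 and the elements of CALR and CRELD2 lie on the opposite strand, so that those parts appear in reverse.

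In HCT116 the 7 members with the element had a median of 0.49 and a range from 0.16, for XBP1, whose other probe was lower (-0.22), to 0.61, beside a median of 0.11 over the 7 measured members without it, of which 5 were higher. In COLO205 the 7 with the element had a median of -0.27, with 2 of them higher, and the 7 without it a median of 0.09, with 4 higher. In OVCAR5 the medians were 0.06 over 7 and 0.12 over 8. The members with the element thus had the higher median in HCT116 and the lower median in COLO205 and OVCAR5. These groups are few genes read on the same pair of arrays, and no test was made of them.

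**Figure D4:**
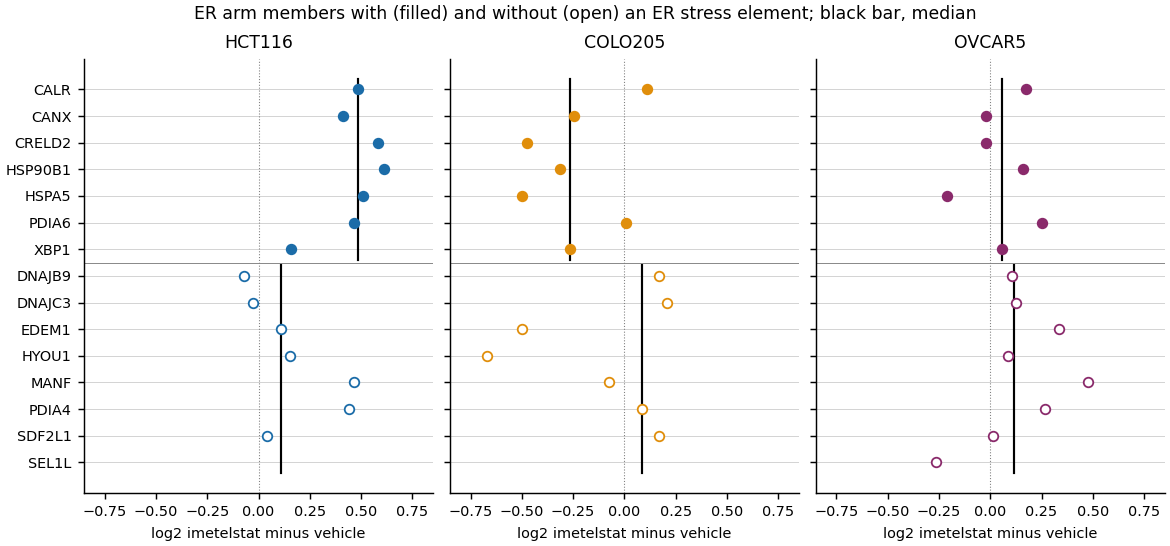
Log2 signal with imetelstat minus vehicle (x axis) of each measured ER arm member (y axis) in each line, with the 7 members whose promoter window holds the ER stress element filled and the others open; black bars are medians. The medians with and without the element are 0.49 and 0.11 in HCT116, -0.27 and 0.09 in COLO205, and in OVCAR5 0.06 and 0.12.

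Of the ER arm, XBP1, the factor that acts after splicing by IRE1, differed little. Its signals were 9.96 with vehicle and 10.12 with imetelstat in HCT116, 10.19 and 9.92 in COLO205, and in OVCAR5 11.27 and 11.32, and both OVCAR5 arrays lay above the other 4. A further XBP1 probe differed by -0.22, -0.50 and 0.02, with the opposite sign in HCT116, so that no direction is given for it there.

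The large ER chaperones were higher in HCT116 in 3 of 3 cases and lower in COLO205 in 3 of 3. HSPA5 (BiP), the ER Hsp70 that holds the sensors inactive, had signals of 8.27 and 8.78 in HCT116, 9.29 and 8.79 in COLO205, and in OVCAR5 9.74 and 9.53. The HCT116 vehicle array was the lowest of the 6, and the imetelstat arrays of HCT116 and COLO205 came out at nearly the same level (8.78 and 8.79) from opposite sides. HSP90B1 (GRP94), the ER Hsp90, had signals of 12.73 and 13.34 in HCT116, 13.13 and 12.82 in COLO205, and in OVCAR5 13.16 and 13.32. It was 1.53-fold higher in HCT116, the 121st highest difference of 11010 genes. HYOU1, the exchange factor of BiP, had signals of 8.17 and 8.33 in HCT116, 8.35 and 7.67 in COLO205, and in OVCAR5 8.84 and 8.92. It was 1.59-fold lower in COLO205, but a second probe of nearly the same brightness gave 0.02 there, so that this difference rests on 1 probe.

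The J proteins, which bring clients to BiP, did not share the chaperones' pattern. DNAJB9 (ERdj4) had signals of 8.45 and 8.38 in HCT116, 8.55 and 8.72 in COLO205, and in OVCAR5 7.94 and 8.04. DNAJC3 (p58IPK), which also restrains PERK, had signals of 7.40 and 7.38 in HCT116, 7.19 and 7.40 in COLO205, and in OVCAR5 7.64 and 7.77. SDF2L1, grouped with them because it works in a complex with a J protein, had 11.23 and 11.27 in HCT116, 11.28 and 11.44 in COLO205, and in OVCAR5 10.98 and 10.99. All 3 were within 0.07 of 0 in HCT116 and between 0.17 and 0.21 in COLO205.

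The lectin chaperones and disulfide isomerases, which fold glycoproteins and form their disulfide bonds, were higher in HCT116 in 4 of 4 cases. The lectin chaperone CALR had signals of 10.09 and 10.57 in HCT116, 10.46 and 10.57 in COLO205, and in OVCAR5 10.89 and 11.06, higher with imetelstat in 3 of 3 lines. Its membrane-bound counterpart CANX differed by 0.41, -0.24 and -0.02, and a second CANX probe by 0.32, -0.13 and -0.03. PDIA4 differed by 0.44, 0.09 and 0.27, and PDIA6, which also acts on the sensor IRE1, by 0.46, 0.01 and 0.25. With SDF2L1, these isomerases and CALR were the 4 members of the ER arm that were higher in 3 of 3 lines, though the smallest of their differences were 0.01.

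Degradation factors and secreted ER stress proteins completed the arm. EDEM1, which marks misfolded glycoproteins for export to the proteasome, had signals of 8.09 and 8.20 in HCT116, 8.21 and 7.72 in COLO205, and in OVCAR5 9.38 and 9.72. SEL1L, the scaffold of the ER ubiquitin ligase, was detected on the OVCAR5 vehicle array alone (7.22, against 6.96 with imetelstat) and was at least 1.13-fold lower with imetelstat there. CRELD2, a secreted protein induced by ER stress, had signals of 10.02 and 10.60 in HCT116, 10.26 and 9.78 in COLO205, and in OVCAR5 12.20 and 12.18. Both OVCAR5 arrays were far above the other 4, and the vehicle array of OVCAR5 exceeded the mean of the HCT116 and COLO205 vehicle arrays by 2.06. MANF, a secreted factor that binds BiP, had signals of 11.50 and 11.96 in HCT116, 12.10 and 12.02 in COLO205, and in OVCAR5 12.20 and 12.67, and it was the highest of its arm in OVCAR5 (1.39-fold).

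Levels of the same probe were also compared between lines. OVCAR5 lay above all 4 HCT116 and COLO205 arrays in 10 of 14 members of the ER arm (71.4%), beside 27.2% of all genes, and above in 5 and below in 6 of 17 members of the ATF4 arm, beside 27.2% and 35.0%. Among the 4 arrays labelled colon, the HCT116 vehicle array was the lowest in 8 of 14 members of the ER arm (57.1%; all genes, 26.2%) and the highest in 9 of 17 members of the ATF4 arm (52.9%; all genes, 22.1%). The HCT116 imetelstat array was the lowest in 9 of 17 members of the ATF4 arm (52.9%; all genes, 24.5%). For the ER arm it was the highest in 6 of 14 (42.9%; all genes, 25.3%). The COLO205 imetelstat array was the lowest in 7 of 17 members of the ATF4 arm (41.2%, all genes 29.7%). The COLO205 vehicle array was the lowest in 0 of them (all genes 19.7%). For the ER arm the COLO205 vehicle array was the highest in 5 of 14 (35.7%, all genes 21.0%). There the COLO205 imetelstat array was the highest in 2 of 14 (14.3%, all genes 31.7%). Relative to the mean of the 4 arrays, the median of the ER arm was -0.16 on the HCT116 vehicle array, 0.13 on the HCT116 imetelstat array, and 0.10 and 0.02 on the COLO205 vehicle and imetelstat arrays. The median of the ATF4 arm was 0.11, -0.19, -0.00 and -0.03 on these arrays in the same order. With single arrays, an effect of an array and an effect of treatment cannot be told apart.

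Taking signs line by line, 13 of 18 members of the ATF4 arm were lower in HCT116 and higher in OVCAR5, a pairing that 24.2% of all genes showed, and 0 had the reverse. In the ER arm 9 of 14 were higher in both of those lines (all genes, 24.9%), and 8 of 14 were higher in HCT116 and lower in COLO205 (all genes, 29.0%).

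The wider pathway was read from 80 further genes, of which 69 were measured. Over those measured in a line, the median was 0.06 in HCT116 (66 genes), -0.07 in COLO205 (65 genes) and 0.04 in OVCAR5 (69 genes). A group of 9 measured genes held PERK, GCN2, PKR, HRI and ATF6 together with EIF2S1, MBTPS1, MBTPS2 and NFE2L2. It is thus wider than the kinases and sensors. Its genes below 0 numbered 7 in HCT116 (group median -0.15), 8 in COLO205 (-0.13) and 6 in OVCAR5 (-0.02). Among all genes, those below 0 numbered 5400 of 11010 in HCT116, 5333 of 10445 in COLO205 and 5356 of 10538 in OVCAR5. EIF2AK2 (PKR), which is also an interferon-stimulated gene, had signals of 11.15 and 9.61 in HCT116, 9.41 and 9.04 in COLO205, and in OVCAR5 9.73 and 9.72, and its HCT116 difference of -1.53 was the most negative of the 80. The HCT116 vehicle array was the highest of the 6 for it. EIF2AK3 (PERK) differed by -0.15, -0.02 and 0.16, EIF2AK4 (GCN2) by -0.21, -0.18 and -0.02, and ATF6 by -0.09, -0.13 and 0.07. ERN1 (IRE1) was not among the genes measured. NFE2L2 (NRF2), the antioxidant factor that PERK can act on, differed by -0.49, -0.66 and -0.22.

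Other listed targets of ATF4 did not follow the arm in OVCAR5 or in HCT116. In OVCAR5 10 of 24 were higher, with a median of -0.03, beside 19 of 21 in the arm. In HCT116 12 of 21 were higher, with a median of 0.02, beside 3 of 18 in the arm. ATF3, a stress factor downstream of ATF4 and of other signals, differed by -0.97 in HCT116, 0.87 in COLO205 and -0.12 in OVCAR5, the same signs as PPP1R15A. SESN1, a relative of SESN2 that p53 also induces, differed by 0.86, 0.08 and -0.07. PYCR1, which makes proline, differed by 0.25, -0.18 and -0.52, and JDP2, a repressor related to ATF3, by 0.07, 0.13 and 0.44.

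Other genes of ER folding, translocation and degradation followed the ER arm to a lesser degree in HCT116, where 23 of 36 were higher with a median of 0.16. In COLO205 15 of 34 were higher (median -0.07) and in OVCAR5 24 of 36 (median 0.09). In HCT116, TXNDC5, a disulfide isomerase, differed by 0.72, ARFGAP3, a Golgi trafficking factor, by 0.71, and SEC61A1, the core of the translocation channel, by 0.66. Lower in HCT116 were HSPA13 at -0.70, an Hsp70 relative of the ER, and CREB3, a membrane-bound factor that was detected with vehicle only and was at least 1.44-fold lower with imetelstat. In COLO205 the ER chaperone ERP29 (-0.59) and the ER membrane protein WFS1 (-0.55) were the lowest of this group, and DERL2 (0.48), part of the export machinery, and FKBP14 (0.32), a prolyl isomerase, the highest. In OVCAR5 SYVN1, the ubiquitin ligase that works with SEL1L, was the highest at 0.49, followed by SPCS3, a signal peptidase subunit, at 0.37, and SERP1, which steadies the translocation channel, differed by -0.45, next to CREB3. In limma's test across lines 4 of these 69 genes had an unadjusted p below 0.05 (EIF2AK2, NFE2L2, KLHL24 and TMED2), beside 2.7% of all genes, and 0 had an adjusted p below 0.05.

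**Figure D5:**
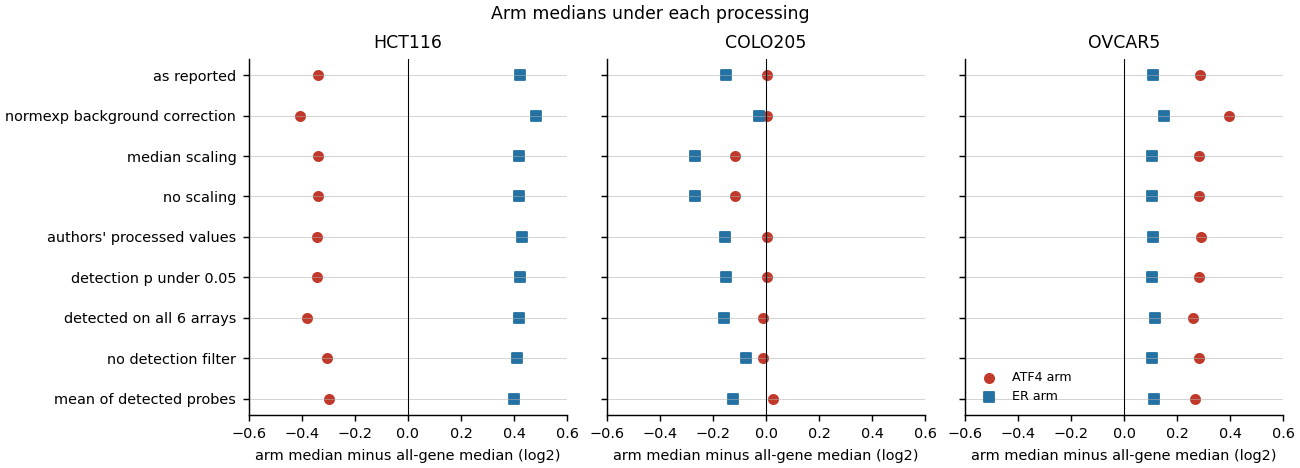
Median log2 difference of the ATF4 arm (red circles) and of the ER arm (blue squares) minus the median over all genes (x axis) in each line, under each processing of the arrays (y axis). In HCT116 the ATF4 arm stays left of 0 and the ER arm right of 0 under all 9 processings, and in OVCAR5 both stay right of 0.

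The direction of both arm medians in HCT116 and OVCAR5 was the same under each of the 9 processings. In COLO205 the ER arm median was below 0 under all 9, from -0.035 after normexp background correction to -0.577 with no scaling. The brightest probe was chosen anew after normexp, and the -0.035 came with HYOU1 read from its other probe. The ATF4 arm median there ranged from -0.428 with no scaling to 0.016 with the mean of detected probes. The COLO205 imetelstat array had a mean signal of 359.8, the lowest of the 6 (the others, 453.7 to 487.5). Without quantile normalization the median over all COLO205 genes was -0.26 after median scaling and -0.31 with no scaling, and relative to it the ATF4 arm stood at -0.12 and the ER arm at -0.27 in both cases.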

How the data were processed

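The signal intensities that the authors deposited are bead averages on a linear scale, neither normalized nor background-subtracted, each with a detection p-value against negative control beads. The authors' processed intensities are quantile-normalized on a linear scale although log2 is described, and followed the signals of each array with a Spearman rho of 1. The methods name lumi (version not given in the sources used here).

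Signals of 47231 probes were taken to log2 and quantile-normalized (limma 3.58.1, R 4.3.3). Between 15627 and 17276 probes per array were detected at p below 0.01. Of all probes 30113 had 1 gene symbol, 8 several and 17110 none, and 30074 symbols were updated by identifier. Each gene was read from its brightest detected probe, and 3242 genes had several. Within a line, genes were called by size and ranked. Where 1 array of a pair missed a gene, the bound is against the lowest detected signal of that array. Across lines limma's lmFit and eBayes were used with Benjamini-Hochberg adjustment and the line as a block; the pairing comes from the cell lines. The fit was tested on simulated data with independent errors and the same effect in each line. That test does not cover effects that differ between lines, or lines that resemble each other.

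The members and lists were chosen with earlier results of these data known. Members at least 1.5-fold apart in a line, ATF4, DDIT3, XBP1, HSPA5 and the extremes of each arm were named with all signals (EIF2AK2, CALR, PDIA4 and the further probes were singled out with their values already seen), and of the wider pathway genes those past 1.5-fold and the 3 highest and lowest per line. Proteins of the ER arm were not analysed here. Python 3.11.15, numpy 2.4.6, pandas 2.3.3 and matplotlib 3.10.9 were used.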

Additional observations from a re-analysis of the deposited data

Results flagged for a closer look

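Arm medians of opposite sign in 2 lines, each at least 0.1 from 0, and members of opposite sign that lay at least 1.0 apart, all on the log2 scale, are given here as the difference between the lines' differences. None of these was tested, since each line had 1 array per treatment. By this measure 9 of 96 pairs of a member and 2 lines stood out, beside 472 of 29079 such pairs over all genes (1.62%). The members were chosen with earlier results of these arrays known, so these shares are not an independent comparison.

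Of the arms, the ATF4 arm median in HCT116 was -0.618 from that in OVCAR5, the ER arm median in HCT116 was 0.589 above that in COLO205, and the ER arm median in COLO205 was -0.266 from that in OVCAR5. HCT116 minus OVCAR5 was -1.221 for TRIB3, -1.211 for DDIT4, -1.284 for ASNS and -1.006 for SLC7A5. COLO205 minus OVCAR5 was -1.361 for DDIT4. HCT116 minus COLO205 was -1.321 for PPP1R15A and -1.277 for SLC3A2 in the ATF4 arm, and 1.004 for HSPA5 and 1.055 for CRELD2 in the ER arm.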

How the results depend on the processing

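The ATF4 arm median minus the ER arm median in HCT116 kept its direction under each alternative in which it was computed, with -0.889 after normexp background correction and -0.595 with means in place of medians. In COLO205 the same difference was 0.03 after normexp, where HYOU1 was read from its other probe. Members past 1.5-fold numbered 4 in HCT116 and 7 after normexp, and 3 in COLO205 but 11 after median scaling and 12 with no scaling. The median over all COLO205 genes was also lower under these scalings, at -0.26 and -0.31. The share of all genes past the limit under each alternative is not given, so these counts are not a result about the members. At 2-fold there were 0 in each line as reported, but DDIT4 and SLC38A2 passed in COLO205 after median scaling (-1.04 and -1.03) and with no scaling (-1.09 and -1.08), and SESN2 in OVCAR5 after normexp (1.10). HYOU1 in COLO205 was -0.67 on its brightest probe and 0.022 on its other probe, an alternative chosen after seeing the data. After normexp the brightest probe was chosen anew, and its value of 0.028 was read from that other probe. The 2 alternatives are thus the same probe, and the change of sign is not an effect of background correction on 1 probe. SLC3A2 in COLO205 fell short of 1.5-fold at 0.36 after median scaling and 0.32 with no scaling, and ASNS in OVCAR5 at 0.56 with the mean of its probes and 0.39 with its other probe. Genes past limma's adjusted p numbered 0 with all lines, 3 without the COLO205 pair, 0 without the HCT116 pair and 13 without the OVCAR5 pair; 0 members passed in any of these fits, and the lowest adjusted p of a member ranged from 0.404 to 1.0. Without the block for the line limma also called 0 genes. Apart from the change of HYOU1 probe, the cause of these shifts was not tested. The protein alternative was not run. No paired analysis by replicate number was possible because the labels give 1 array per line and treatment; the line is the block. Dim genes close to the background (SESN2, CHAC1, SEL1L) are limited by signal.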
